A study of Mus musculus with 14 samples.

Results

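The genes described are 7 genes of the major histocompatibility complex (MHC) class II pathway of antigen presentation, *H2-Aa*, *H2-Ab1*, *H2-Eb1*, *H2-DMa*, *H2-DMb1*, *Cd74* and *Ciita*. They were chosen by name, and they make up 7 of the 28316 genes counted in retina and 7 of the 26528 genes counted in brain. Their counts were followed in single nuclei of retinas and of brain tissue enriched for blood vessels, from mice whose endothelial cells had lost the TGF-beta receptor *Tgfbr1* and from control mice.

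The mutant mice (CKO) carried *Cdh5CreER;Tgfbr1 CKO/-*, in which a Cre recombinase made under the endothelial *Cdh5* promoter (VEcadCreER in the labels) deletes the floxed *Tgfbr1* allele after 4HT, the active form of tamoxifen, given at P3 to P5. The control libraries are labeled WT and came from phenotypically wild type animals by the study's account, which elsewhere names mice with 1 floxed and 1 intact copy of the gene as its usual controls. The exact genotype of these control libraries and whether they got 4HT are not given. Tissue was taken at P14 by the study's methods, and the labels call it young adult. The deletion is endothelial by design, so other cell types of the CKO mice, which carry the null allele throughout, keep 1 floxed copy. Retina gave 1 control library and 11 CKO libraries, and brain gave 1 library per genotype, each from a pool of 2 mice.

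The measured values are UMIs, which are counts of distinct RNA molecules per gene and nucleus, from the 3′ ends of nuclear RNA. The control retina library held 30989702 UMIs in 11513 nuclei, and the CKO retina libraries held 90449 to 55803724 UMIs (median 16443337). The brain libraries held 49798325 UMIs (control) and 31033373 UMIs (CKO). CKO replicates 4 and 5 differ from the rest in that the study removed clusters with multiple nuclei from them by hand. Replicate 4 holds 104 nuclei, 65 of them labeled immune, and results that rest on all nuclei of a library are given without it. The control retina shares batch 1 of the deposited metadata with CKO replicates 1 to 3, and batches 2 and 3 hold CKO libraries only. CKO replicates 8 to 11 were made with version 5 of the library kit, and the control and the other CKO libraries with version 4. In replicates 8 to 11 the median depth was 2717 to 4041 UMIs per nucleus, against 1595 UMIs in the control retina. In retina 10 barcodes occurred in more than 1 library, which touched 20 nuclei, none of them an immune nucleus with a class II UMI, and in brain 2 barcodes did.

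As background, MHC class II molecules are pairs of an α and a β chain that carry peptides of ingested proteins to the cell surface, where CD4 T cells read them. Dendritic cells, B cells and activated macrophages make them at high level, whereas microglia of the healthy retina and brain and endothelial cells make little. The invariant chain CD74 guards the groove of a new pair, the H2-DM dimer helps to exchange its remnant for a peptide, and CIITA is the coactivator that switches these genes on, interferon gamma being its classical inducer.

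Of the 7 genes, 5 lie together on chromosome 17 of GRCm39 in the GENCODE annotation, within 197134 bases (chr17:34338515-34535648) that hold 26 annotated genes. The α chain gene *H2-Aa* (ENSMUSG00000036594, chr17:34493404-34506798, minus strand) overlaps the β chain gene *H2-Eb1* (ENSMUSG00000060586, chr17:34504236-34535648, plus strand) on the other strand, and the β chain gene *H2-Ab1* (ENSMUSG00000073421, chr17:34476663-34488393, plus strand) lies beside them. *H2-DMa* (ENSMUSG00000037649, chr17:34338515-34358958, plus strand) overlaps *Brd2* on the other strand, and *H2-DMb1* (ENSMUSG00000079547, chr17:34372046-34379204, plus strand) is a near copy of *H2-DMb2*. The other genes are *Cd74* (ENSMUSG00000024610, chr18:60936899-60945731, plus strand) and *Ciita* (ENSMUSG00000022504, chr16:10297923-10347694, plus strand), also on GRCm39. How reads from overlapping genes, or from the near copies *H2-DMb1* and *H2-DMb2* or *H2-Eb1* and *H2-Eb2*, were divided was not tested.

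The first comparison asked whether nuclei labeled immune in the retina carried class II RNA in both genotypes. They did so in the CKO libraries, while in the few immune nuclei of the control library none was found. Class II UMIs were found in 140 of 691 CKO immune nuclei (20.3%, exact binomial 95% interval 17.3 to 23.5) and in 0 of 29 control immune nuclei, which allows a share of up to 10.3%. All 11 CKO libraries had class II UMIs in their immune nuclei, 672 in all, of which replicate 5 held 294.

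In the control library the immune nuclei held 114469 UMIs of all genes, so that 0 class II UMIs allows up to 26.2 CPM (UMIs of a gene per 1000000 UMIs of all genes). This floor, taken as 3 counts, and the intervals cover counting error only. Among the CKO libraries, the share of immune nuclei with a class II UMI was 10.0% at the lowest (replicate 3), 17.9% at the median and 31.2% at the highest (replicate 11), with a mean of 19.5% ± 7.37 (SD, n = 11). Replicate 3 lay under the control's floor. Against the control's exact upper limit of 11.9%, the share was lower in 3 libraries (replicates 3, 4 and 7), and in 4 libraries the whole interval lay above it.

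The summed level of the 7 genes in immune nuclei was 31.1 CPM at the lowest (replicate 7), 211 CPM at the median and 398 CPM at the highest (replicate 5), with a mean of 222 ± 129.9 CPM (SD, n = 11). All 11 CKO libraries lay above the control's floor, and for 9 of them the interval lay above the control's upper limit of 32.2 CPM. The CKO mean was 6.88-fold above that upper limit (8.46-fold above the floor), and 6.34-fold above it without CKO replicate 4 (7.79-fold above the floor). The floor and limit in CPM count UMIs as independent, which UMIs of 1 nucleus are not. Folds above them, here and for single genes below, are therefore no firm bounds. Of the control's UMIs, 75455 lay in 11 nuclei of clusters with markers of retinal neurons, described below. The 18 microglia-like control nuclei held 39014 UMIs and alone set an upper limit of 94.6 CPM. The means of *H2-Eb1* and *Cd74* given below do not pass that limit. Without replicates 4 and 5 the mean was 183 CPM and the mean share 20.0% (n = 9). Within batch 1 the same values were a share of 16.3% and a level of 142 CPM, over CKO replicates 1 to 3, against 0 in the control.

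**Figure D1:**
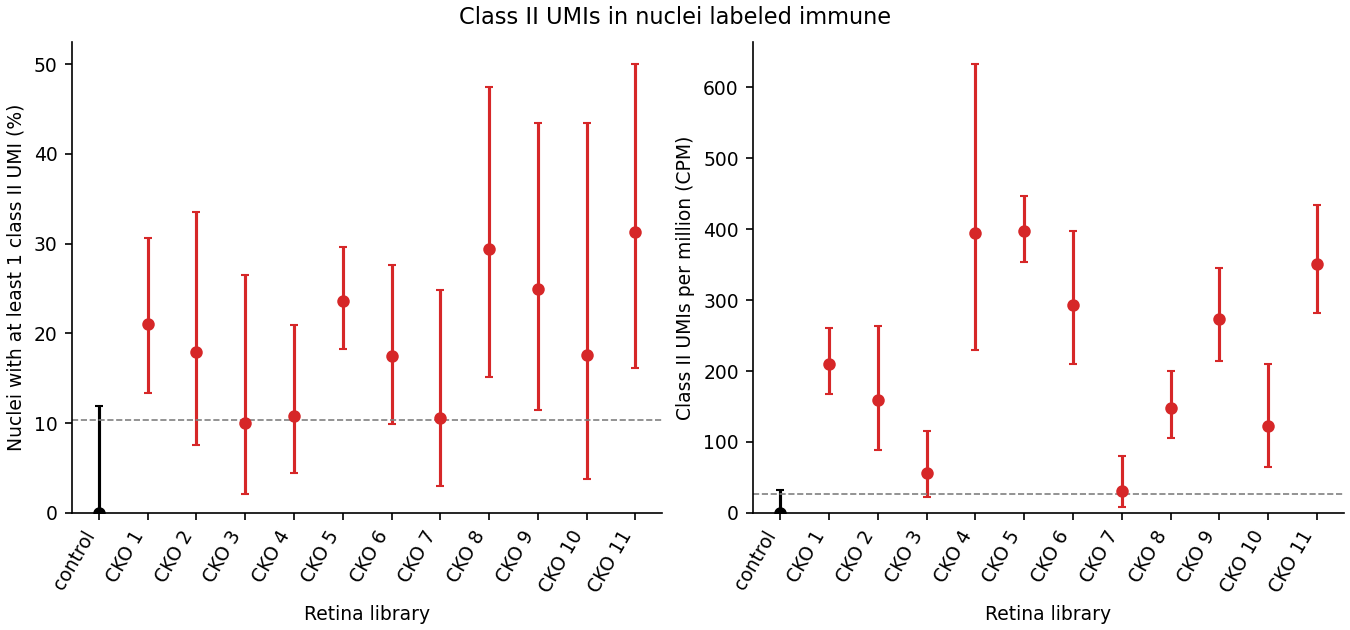
Share of nuclei labeled immune with at least 1 class II UMI (percent) and summed level of the 7 genes in them (CPM) in each retina library, with exact 95% intervals and the control's floor as dashed lines. The control stood at 0 of 29 nuclei with a floor of 10.3% and 26.2 CPM, and the CKO libraries ran from 10.0% to 31.2% and from 31.1 to 398 CPM.

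A UMI in a nucleus need not come from that nucleus, since droplets also take up free RNA, and deep nuclei catch more. The share was therefore set beside that of rods, photoreceptors that should lack class II RNA. Rods held a class II UMI in 0.423% of control nuclei and 0.515% of CKO nuclei, at median depths of 961 and 1104 UMIs against 2892 UMIs for control and 1773 UMIs for CKO immune nuclei. In retinal ganglion cells, which were deeper (medians 8555 and 8539 UMIs), the shares were 10.0% and 11.6%. With each nucleus thinned to 500 UMIs, the share was 10.1% in CKO immune nuclei (20.3% unthinned, 87 of 691 nuclei left out as shallower), 0.136% in CKO rods and 0.707% in CKO ganglion cells. At equal depth the CKO immune nuclei thus stood above both of these types. Between genotypes the share was no longer set apart, since the mean over CKO libraries was 8.89% when thinned and 9.50% with at least 2 UMIs per nucleus, both under the control's floor of 10.3%. The contrast with the control thus rests on the summed level, whose limit counts UMIs as independent. UMIs of 1 nucleus are not, and 43 of the 691 CKO nuclei held 79.8% of the class II UMIs. The 29 control nuclei may hold none of that kind, so the level sets no firm difference between genotypes.

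The chain genes were found in most CKO libraries. *H2-Aa*, the α chain of the I-A pair, had 100 UMIs in 45 CKO immune nuclei, and its level was 0 CPM at the lowest, 35.5 CPM at the median and 63.6 CPM at the highest (replicate 5). Replicates 3 and 7 had none and the other 9 libraries had some. The mean of 31.8 ± 22.0 CPM (SD, n = 11) lay above the control's floor but not above its exact upper limit of 32.2 CPM, so no fold is given. Within batch 1, which holds the control, the mean was 18.9 CPM.

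*H2-Ab1*, the β chain that pairs with it, had 105 UMIs in 42 nuclei. Its level was 0 CPM at the lowest, 35.7 CPM at the median and 69.7 CPM at the highest (replicate 4), and again replicates 3 and 7 had none. Its mean of 32.2 ± 25.9 CPM did not pass the control's upper limit either, and was 28.5 CPM without replicate 4. Within batch 1 it lay under the floor.

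*H2-Eb1*, the β chain of the I-E pair, had 127 UMIs in 52 nuclei. The level was 0 CPM in replicate 7, 48.2 CPM at the median and 93.0 CPM at the highest (replicate 4). All libraries but replicate 7 had UMIs, and the mean of 45.1 ± 31.5 CPM was 1.40-fold above the control's upper limit (1.72-fold above the floor). The mean share of nuclei with *H2-Eb1* was 7.55%, under the control's floor of 10.3%, so that the share set no difference. Within batch 1 the mean was 28.5 CPM, under the control's upper limit of 32.2 CPM, so that no difference was set there.

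*Cd74*, the invariant chain, had 183 UMIs in 67 CKO immune nuclei. The level was 0 CPM in replicate 7, 42.8 CPM at the median and 163 CPM at the highest (replicate 4), so that 9 of 11 libraries lay above the control's floor. The mean of 60.6 ± 47.8 CPM (SD, n = 11) was 1.88-fold above the control's upper limit (2.31-fold above the floor), and within batch 1 the mean was 43.5 CPM, also above that limit. By nuclei, the mean share with *Cd74* was 9.46%, under the control's floor of 10.3%, so that the share set no difference.

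For the remaining genes the control was too shallow to set a difference by level or by share. *H2-DMa*, the α chain of the peptide exchange factor, had 53 UMIs in 48 nuclei, with 0 CPM at the lowest (replicate 4), 20.3 CPM at the median and 27.1 CPM at the highest (replicate 5). *H2-DMb1*, its β chain, had 38 UMIs in 28 nuclei, with 0 CPM at the lowest (replicate 3), 15.4 CPM at the median and 31.9 CPM at the highest (replicate 2). Both were present in 10 of 11 CKO libraries, with means of 17.0 ± 8.33 and 14.9 ± 8.97 CPM that lay under the control's floor of 26.2 CPM. *Ciita*, the coactivator, had 66 UMIs in 33 nuclei of 8 libraries, with 0 CPM at the lowest, 17.8 CPM at the median and 57.2 CPM at the highest (replicate 11). It was absent from the immune nuclei of replicates 3, 4 and 7, and its mean of 20.0 ± 18.8 CPM also lay under the floor.

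Tested with edgeR over the 11273 genes with enough UMIs in immune nuclei, with the kit as covariate, 0 of the 7 genes were called at an adjusted p of 0.05, beside 0% of all genes. The single control library was assumed to vary as the CKO libraries did. The 7 genes had 0 UMIs in the control and passed the filter through the CKO libraries alone, so the fit could only place them higher, and neither that direction nor their unadjusted p is read. Their adjusted p was 0.954. DESeq2 also called 0 genes. In simulated counts for immune nuclei, the edgeR fit called 0 of 50 genes raised 4-fold and 7 of 50 raised 8-fold. Over all nuclei it called 1 of 50 and 10 of 50, and in Müller glia 4 of 50 and 8 of 50. A count of 0 genes called, here and below, therefore does not show equal levels.

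The class II UMIs were gathered in a minority of the CKO immune nuclei, and within them the chain genes and *Cd74* occurred together. Of the 140 nuclei with a class II UMI, 72 held 1 UMI, whereas the 43 nuclei with at least 5 UMIs held 79.8% of all class II UMIs. There were 44 nuclei with at least 3 of the 7 genes, and the highest nucleus held 37 UMIs. Of the 45 nuclei with *H2-Aa*, 36 also held *Cd74* (80.0%, against 4.80% of the other immune nuclei), and of the 33 nuclei with *Ciita*, 26 held *Cd74* (78.8% against 6.23%). *H2-DMa* went less with the others, as 9 of its 48 nuclei held *Cd74* (18.8% against 9.02%). Deep nuclei hold more of any pair of genes, and nuclei with a class II UMI had a median depth of 2373 UMIs against 1637 UMIs for those without. *Ptprc*, which encodes the leukocyte antigen CD45, was found in 85.0% of the nuclei with a class II UMI, in 66.4% of the other CKO immune nuclei and in 62.1% of the control immune nuclei.

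Clustering of the immune nuclei without the 7 genes showed where these UMIs lay. Among 14 clusters, named where possible from marker lists, the highest class II level was in a cluster of 31 nuclei with dendritic cell markers, at 5451 CPM (95% interval 4860 to 6094). It held 309 UMIs, 46.0% of all class II UMIs in immune nuclei, and 26 of its 31 nuclei were positive (83.9%, and 76.0% when thinned to 500 UMIs). Its nuclei came from 8 CKO libraries, 12 of them from replicate 5, and without that replicate it still held 164 class II UMIs. The name depended on the resolution, as at 0.5 in place of 1 no cluster was named dendritic cell-like and a B cell-like cluster of 47 nuclei held 51.2% of the class II UMIs. Of the 12 listed dendritic cell markers 8 were raised, *Dpp4* was the most abundant, *Cd209a* and *Ccl22* had 0 UMIs, and the list stood at 2840 CPM against 75.1 CPM in the other clusters.

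Next came a cluster of 14 nuclei with all 11 listed B cell markers raised, of which *Ebf1* was the most abundant, at 1918 CPM (1320 to 2693), with 8 of 14 nuclei positive. An unnamed cluster of 72 nuclei, 47 of them from replicate 5, stood at 722 CPM (576 to 894) and had 6 of 10 macrophage and 6 of 10 microglia markers raised. A macrophage-like, a monocyte-like and another macrophage-like cluster stood at 615, 532 and 514 CPM, with overlapping intervals (467 to 795, 329 to 813 and 299 to 822), but the remaining macrophage-like cluster, of 43 nuclei, stood at 67.5 CPM (27.1 to 139). Single libraries weigh on these levels, as 33 of the 58 UMIs of the macrophage-like cluster at 615 CPM came from replicate 1 and 13 of the 17 of that at 514 CPM from replicate 6. The 4 genes *H2-Aa*, *H2-Ab1*, *H2-Eb1* and *Cd74* had 45, 60, 60 and 86 UMIs in the dendritic cell-like cluster, *Ciita* had 37 and *H2-DMb1* had 15. *H2-DMa* had 6 UMIs there, at 106 CPM its highest level of any cluster (48.2 CPM in the next), and its 53 UMIs were spread over 12 of the 14 clusters. The lowest class II level, 18.9 CPM (6.12 to 44.0), was in a microglia-like cluster.

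**Figure D2:**
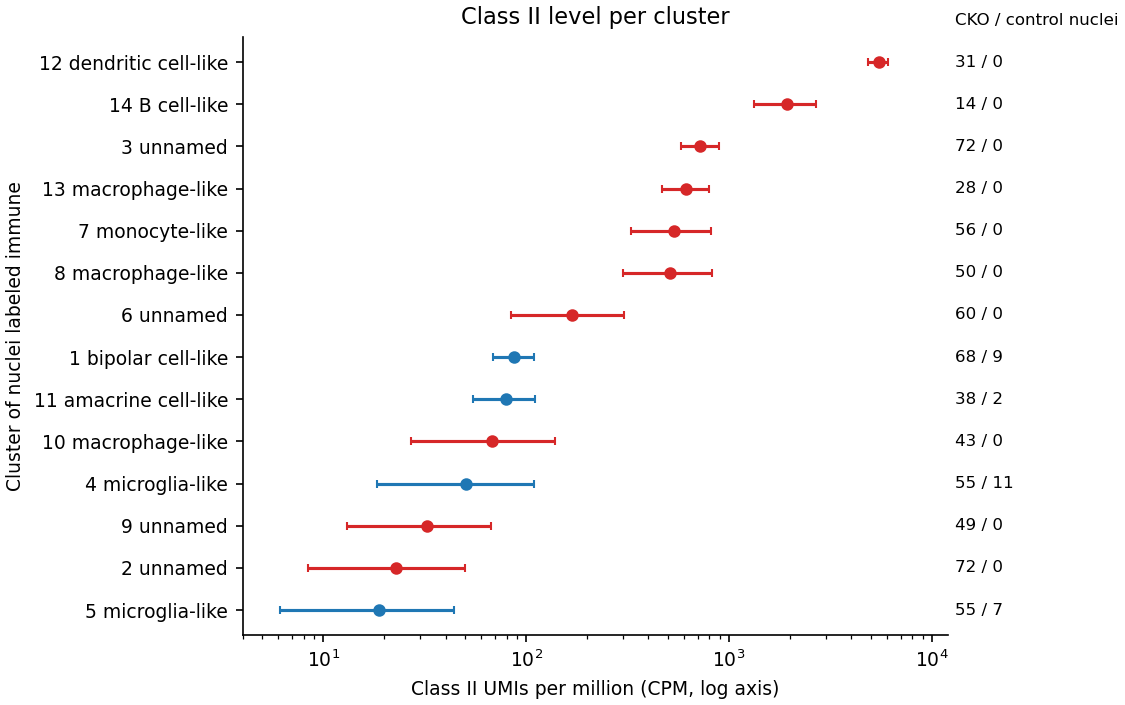
Summed level of the 7 genes (CPM, logarithmic axis, exact 95% intervals) in the 14 clusters of retina nuclei labeled immune, blue for clusters that hold control nuclei, with the number of CKO and control nuclei at the right. The dendritic cell-like cluster stood at 5451 CPM and the lowest microglia-like cluster at 18.9 CPM.

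The control immune nuclei fell into 4 of these clusters, 18 into the microglia-like ones, 9 into a bipolar cell-like and 2 into an amacrine cell-like one, so that none of the 29 lay in the dendritic cell-like, B cell-like, macrophage-like or monocyte-like clusters. In those 4 clusters, CKO nuclei held class II UMIs in 42 of 216 nuclei (19.4%, 119 UMIs, 76.9 CPM), and in the other 10 clusters in 98 of 475 nuclei (553 UMIs, 550.3 CPM). Over the CKO libraries the mean level in the clusters that hold control nuclei was 61.4 CPM, against 222 CPM in all immune nuclei, an alternative chosen after seeing the data. In the microglia-like clusters the control had 0 of 18 nuclei with a class II UMI, which allows up to 16.7% and 76.9 CPM, and CKO had 9 of 110 nuclei (8.18%) with 11 UMIs (31.8 CPM), 5 of them from *H2-DMa*. A difference between genotypes in microglia-like nuclei was not detectable at this depth. In the bipolar cell-like and amacrine cell-like clusters, whose nuclei carry the immune label beside markers of retinal neurons, CKO had 33 of 106 nuclei with a class II UMI (31.1%, 89.9 CPM, median depth 9434 UMIs) and control 0 of 11. The control, at a median depth of 6091 UMIs, allows up to 27.3% and 39.8 CPM there. The CKO level lay above that floor, while the interval of the CKO share (22.5 to 40.9%) held it. That level rests on 108 UMIs, of which the chain genes and *Cd74* had 76, in 14 nuclei. Replicate 5, from a batch without a control, held 40 of the 74 UMIs of the bipolar cell-like cluster and 18 in the amacrine cell-like one. The number of immune nuclei of each kind differed between genotypes, and how far that number and the level within each kind each set the summed level was not tested beyond these values.

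Across the 14 clusters the genes other than *H2-DMa* ran together, with Pearson r of log2(CPM + 10) from 0.80 (*H2-DMb1* with *Cd74*) to 0.97 (*H2-Aa* with *H2-Eb1*). For *H2-DMa* r with the other 6 genes was 0.20 to 0.48. These are descriptions over 14 clusters that share libraries and differ in depth. Of 8050 other genes with at least 50 UMIs in immune nuclei, those whose pattern was most like the summed class II level were *Arhgap15* (r = 0.91), *Ifi30* (0.88), the lysosomal thiol reductase of antigen processing, *Ifi203* (0.88), *Kynu* (0.88), kynureninase, and *Itpr1* (0.86), a calcium release channel. In the dendritic cell-like cluster *Arhgap15* stood at 5416 CPM against 471 CPM in the others, and *Ifi30* at 123 CPM against 24.9 CPM.

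The next comparison set the immune label against all other retinal labels and asked whether those labels differed between genotypes. In the CKO libraries all 7 genes were counted more densely in immune nuclei, *H2-DMa* by the smallest factor. *H2-DMa*, *H2-Ab1*, *Cd74* and *Ciita* had UMIs in all 11 retinal labels. The mean level over CKO libraries was 286-fold higher in immune nuclei than in all other nuclei for *H2-Aa* (higher in 9 of 11 libraries), 229-fold for *H2-Eb1* (10 of 11), 217-fold for *Cd74* (10 of 11) and 84.3-fold for *H2-Ab1* (9 of 11). For *H2-DMb1* the ratio was 106-fold (10 of 11) and for *Ciita* 31.5-fold (8 of 11), but for *H2-DMa* it was 3.72-fold (10 of 11). Without CKO replicate 4 the ratios were 248-fold for *H2-Aa*, 186-fold for *H2-Eb1*, 164-fold for *Cd74*, 67.7-fold for *H2-Ab1* and 90.9-fold for *H2-DMb1*.

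*H2-DMa* had 1256 of its 1309 retinal UMIs (96.0%) outside the immune label and *Ciita* 204 of 270 (75.6%). That share was 51.3% for *H2-DMb1*, 50.0% for *H2-Ab1*, 31.7% for *H2-Eb1*, 28.0% for *Cd74* and 19.4% for *H2-Aa*. *H2-DMa* made up 71.4% of all class II UMIs outside the immune label, against 7.89% in immune nuclei. *Cd74* made up 27.2% of the class II UMIs in immune nuclei and 4.04% elsewhere. In order of the mean level over CKO libraries, *H2-DMa* stood at 17.0 ± 8.33 CPM in immune nuclei (SD, n = 11), 12.6 ± 14.1 CPM in astrocytes (n = 8), 11.1 ± 6.33 CPM in horizontal cells, 7.93 ± 3.25 CPM in retinal ganglion cells, 6.43 ± 1.25 CPM in glycinergic and 6.37 ± 1.42 CPM in GABAergic amacrine cells. Müller glia, cone bipolar cells, rod bipolar cells and cones lay between 4.90 and 3.03 CPM, and rods stood lowest at 2.24 ± 1.86 CPM. Neighbors in this order did not differ beyond their spread, and the astrocyte value rests on few nuclei.

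Between genotypes these labels showed no difference beyond the spread of the CKO libraries for *H2-DMa* as a whole. Outside the immune label the control held *H2-DMa* at 4.79 CPM, while CKO libraries other than replicate 4 held it at 3.98 CPM at the lowest (replicate 10), 4.92 CPM at the median and 6.17 CPM at the highest (replicate 8). The control lay inside the CKO range, whose mean was 5.02 ± 0.679 CPM (SD, n = 10). In GABAergic amacrine cells the control value of 8.29 CPM lay above all 10 CKO libraries, and in glycinergic amacrine cells the control value of 3.96 CPM lay below 9 of 10, differences that did not pass the test. *Ciita* outside the immune label was at 0.777 CPM in the control and at 0.367, 0.574 and 1.19 CPM at the lowest, median and highest CKO library, with the control again inside the CKO range. By label, its control value lay above all 10 CKO libraries in rod bipolar cells (1.43 CPM, highest CKO 1.25) and in cone bipolar cells (0.945 CPM, highest CKO 0.900). In Müller glia the control stood at 0 CPM and 7 of 10 CKO libraries were higher. *Ciita* was not called in cone bipolar cells, and it had too few UMIs to be tested in rod bipolar cells and Müller glia. *Cd74* had 3 UMIs there in the control (0.0972 CPM) and a mean of 0.307 CPM in CKO without replicate 4, with 9 of 10 libraries higher than the control and the highest value, 0.955 CPM, in replicate 6. *H2-Ab1* was at 0.194 CPM in the control and at 0.0785, 0.383 and 0.882 CPM at the lowest, median and highest of these CKO libraries, with 8 of 10 higher than the control. *H2-Eb1* was at 0.194 CPM against 0.0502, 0.216 and 0.421 CPM, with 6 of 10 higher, and *H2-DMb1* at 0.162 CPM against 0.0502, 0.131 and 0.314 CPM, with 4 of 10 higher. *H2-Aa* had 0 UMIs in the control, which allows 0.0972 CPM, and a median of 0.0669 CPM in CKO, with UMIs in 7 of 10 libraries.

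**Figure D3:**
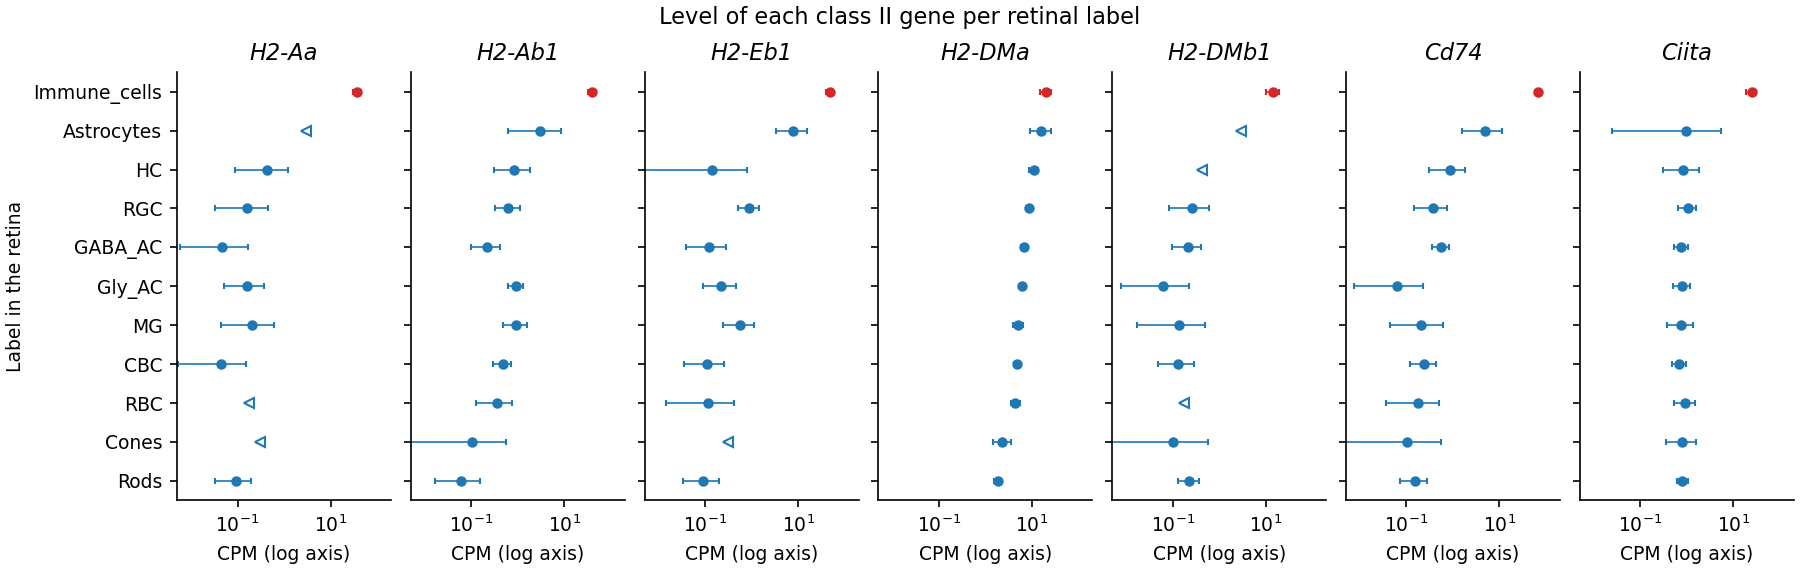
Level of each of the 7 genes (CPM, logarithmic axis) in each retinal cell type label, summed over all 12 retina libraries, with exact 95% intervals and the immune label in red. Open triangles mark the floor of 3 counts where a label had 0 UMIs, and *H2-DMa* alone stood above 1 CPM in every label, from 1.84 CPM in rods to 19.9 CPM in immune nuclei.

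In edgeR fits within the 10 labels other than immune, 4 of the 7 genes had enough UMIs in at least 1 label, *H2-DMa* in 9 labels, *Ciita* in 5, *H2-Ab1* in 2 and *Cd74* in 1. In these 17 tests 0 were called, beside 0.0124% (18 of 145006) over all genes and labels. *Cd74* was tested in GABAergic amacrine cells, where the control had 0 UMIs, so its fit could only come out higher. Of the 17 tests 0 had an unadjusted p under 0.05. DESeq2 was not run within these labels. The fitted log2 fold change of *H2-DMa* ran from -0.42 in rods to 0.85 in cones, with 4 labels higher and 5 lower in CKO. By the mean over CKO libraries 6 of these 9 labels were higher than the control and 3 lower, rods among the higher (2.24 against 2.09 CPM), so that the direction in a label depended on the measure.

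Over all nuclei of a retina the class II genes were seen in more CKO nuclei than control nuclei, though most of these held *H2-DMa*. The share of nuclei with a class II UMI was 1.53% in the control and 1.55% at the lowest (replicate 6), 2.31% at the median and 4.37% at the highest (replicate 9) in the 10 CKO libraries without replicate 4. All 10 lay above the control, with a mean of 2.55%, which is 1.02 percentage points higher. The difference was smaller, at 0.460 points, within batch 1, at 0.379 points without *H2-DMa* and at 0.126 points with nuclei thinned to 500 UMIs. With replicate 4, of which most nuclei are immune, it was 1.40 points.

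By gene, the level of *Cd74* over all retinal nuclei was 0.0968 CPM (3 UMIs) in the control and 0.122, 0.804 and 1.99 CPM at the lowest (replicate 10), median and highest (replicate 5) CKO library, all 10 above the control. *H2-Ab1* and *H2-Eb1* were each at 0.194 CPM (6 UMIs) in the control and at medians of 0.701 and 0.640 CPM in CKO, with 9 of 10 libraries higher for each. *H2-Aa* had 0 UMIs in the control, which allows 0.0968 CPM, and a median of 0.285 CPM in CKO, with replicate 7 at 0. *H2-DMb1* was at 0.161 CPM in the control and at a median of 0.257 CPM in CKO (0.137 to 0.509), with 9 of 10 libraries higher, and *Ciita* at 0.774 CPM and a median of 0.832 CPM (0.426 to 1.59), with 7 of 10 higher. *H2-DMa* was at 4.78 CPM in the control, inside the CKO range of 4.07 to 6.44 CPM

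In the edgeR fit over these libraries (18579 genes) 0 of 6 class II genes were called at an adjusted p of 0.05, beside 0.00538% of all genes, which is 1 gene, *Gm17167*, lower in CKO. *H2-DMb1* fell under the filter of 100 UMIs. The fitted log2 fold changes were 3.33 (SE 1.39) for *Cd74*, 1.97 (SE 0.88) for *H2-Eb1*, 1.94 (SE 1.11) for *H2-Ab1*, 0.45 (SE 0.58) for *Ciita* and 0.12 (SE 0.25) for *H2-DMa*, each with an adjusted p of 1.00. Among the 811 genes with an unadjusted p under 0.05 were *Cd74* and *H2-Eb1*, on 3 and 6 UMIs in the control. *H2-Aa* was too, but it had 0 UMIs in the control and passed the filter through the CKO libraries alone, so its p is not read. Without CKO replicate 5 *H2-Aa* fell under the filter and 0 of the other 5 had such a p. Without CKO replicate 7 edgeR called 16 genes, 0 of them class II genes. DESeq2 called 62 genes, 0 of the class II genes among them.

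Of 35 other genes of the pathway (other class II chains, antigen processing, class II transcription, inducers of *Ciita*, turnover and costimulation), 20 were tested in immune nuclei and 25 over all retinal nuclei, and edgeR and DESeq2 called 0 in both. In immune nuclei 2 of 20 had an unadjusted p under 0.05 (beside 3.88% of all genes), the cathepsin gene *Ctsb*, on 4 UMIs in the control, and the interferon regulatory factor gene *Irf1*, on 0, so that the p of *Irf1* is not read. Over all nuclei 4 of 25 did (beside 4.37%), all by edgeR, and DESeq2 had as many genes under it, 2 and 4. Within the other labels 0 of 201 tests were called, with 10 under an unadjusted p of 0.05, beside 3.87% of all tests, and 4 of the 10 had 0 UMIs in the control.

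In brain the question was whether endothelial cells (ECs), the cells in which the receptor was deleted, carried class II RNA. Class II UMIs were few in ECs of both genotypes, with more in the CKO library. With 1 library per genotype no test was possible, and intervals of ratios cover counting error within these libraries. The control had 36 class II UMIs in 33 of 2475 EC nuclei (1.33%, 6.21 CPM), and CKO had 97 UMIs in 80 of 2944 EC nuclei (2.72%, 14.2 CPM). As background, the 7 genes together stood at 8.75 CPM over the brain labels other than ECs and microglia, above the control ECs, so that the summed level does not set ECs apart. In the largest label of glutamatergic neurons the share was 2.08% in control and 2.06% in CKO, at median depths of 5004 and 2314 UMIs against 1347 and 1491 UMIs for ECs, and most of these nuclei held *H2-DMa*. The chain genes and *Cd74* together stood at 5.00 CPM in control ECs and 9.49 CPM in CKO ECs, against 1.44 CPM over the other labels, but nuclei labeled glia stood at 11.5 and 16.0 CPM. Whether the UMIs in ECs came from the ECs themselves was not tested.

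The ratio of CPM, CKO over control, was 2.28 (95% interval 1.54 to 3.44), and 2.12 with TMM scaling, as the median gene of these nuclei stood 0.13 higher in CKO on the log2 scale and TMM scaling takes off 0.10. For the chain genes and *Cd74* together the ratio was 1.90 (1.21 to 3.05). Thinned to 500 UMIs, 0.307% of control and 0.598% of CKO EC nuclei held a class II UMI (1.33% and 2.72% unthinned, 416 and 343 nuclei left out), against 0.125% and 0.342% in the glutamatergic neurons named above and 0.908% and 2.24% in nuclei labeled glia.

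By gene, the chain *H2-Aa* had 1 UMI in the control ECs and 11 in CKO, a ratio of 9.31 with an interval of 1.35 to 401 (17.6 as a mean over nuclei). *H2-Ab1* had 5 and 14 UMIs, a ratio of 2.37 (0.807 to 8.41), which was 1.41 as a mean over nuclei. *H2-Eb1* had 12 and 18 UMIs, a ratio of 1.27 (0.579 to 2.89), which turned to 0.647 as a mean over nuclei and to 0.978 without nuclei that hold *Ptprc*. Of the 3 chain genes, then, *H2-Aa* had an interval that stayed above 1 and the other genes did not.

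*H2-DMa* had 6 UMIs in the control and 23 in CKO, a ratio of 3.25 (1.28 to 9.75), which was 5.60 as a mean over nuclei. *H2-DMb1* had 0 and 6 UMIs, with an interval of the ratio that starts at 0.997, so no difference was set for it. *Cd74* had 11 and 22 UMIs, a ratio of 1.69 (0.787 to 3.87). *Ciita* had 1 and 3 UMIs, a ratio of 2.54 (0.204 to 133). *H2-DMa* was 1 of the 3 class II genes with at least 20 UMIs in both libraries together, and the only one of these past a ratio of 2, beside 17.0% of the 13154 genes with as many UMIs that had a ratio of at least 2 or at most 0.5 (1470 higher and 761 lower).

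**Figure D4:**
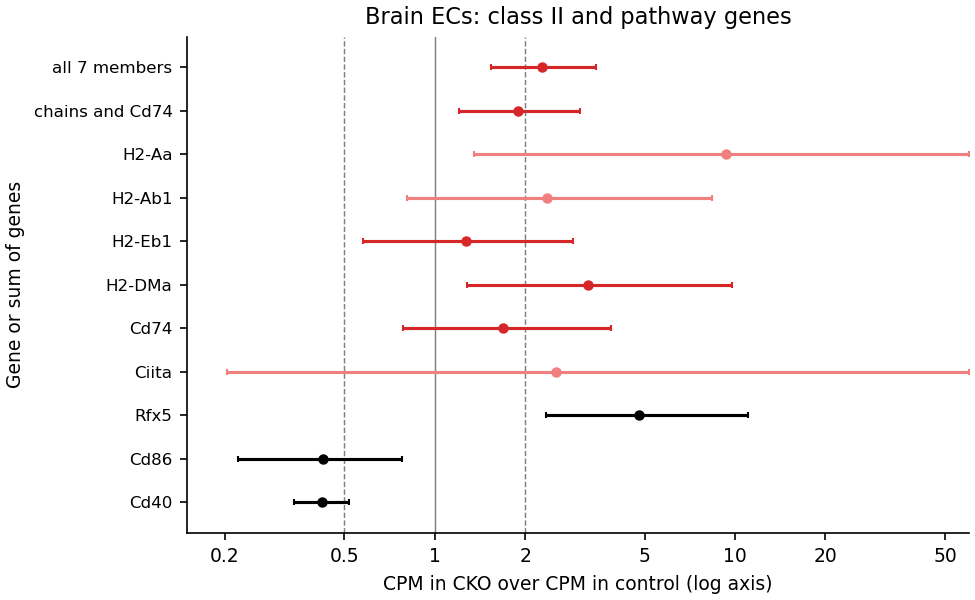
Ratio of CPM, CKO over control, with exact 95% intervals (logarithmic axis) for the class II genes with UMIs in both genotypes (red, light red below 20 UMIs) and for the other pathway genes past a ratio of 2 or 0.5 (black) in brain EC nuclei. *Rfx5* stood at 4.80 and *Cd40* at 0.422, and the bars of *H2-Aa* and *Ciita* run past the axis.

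In ECs the class II UMIs were scattered, unlike in retinal immune nuclei. Of the positive nuclei 31 of 33 in the control and 70 of 80 in CKO held 1 UMI, and 1 CKO nucleus held at least 3 of the genes. The positive nuclei were deep, with medians of 4521 UMIs in the control and 3910 UMIs in CKO against 1332 and 1460 UMIs for the other EC nuclei. *Ptprc* was found in 8.75% of the positive CKO nuclei and 1.33% of the others, and in 6.06% and 1.11% in the control. All 9 listed EC markers were present in the positive nuclei of both genotypes, with *Flt1* the most abundant, but at a lower level than in the other EC nuclei (8970.2 against 11772 CPM in the control, 7909 against 9469.5 CPM in CKO). The 10 listed macrophage markers, of which *Stab1* was the most abundant, were higher in the positive nuclei (584 against 306 CPM in the control, 298 against 235 CPM in CKO). The lists for microglia, dendritic cells and B cells were not higher in both genotypes. Their most abundant genes were *Sparc*, *Zbtb46* (control) or *Dpp4* (CKO), and *Ebf1*. In the other control EC nuclei the microglia list was found in 88.7% and the B cell list in 87.9%. Neither list can therefore tell RNA of those cells apart here. How many of the positive nuclei hold RNA of another cell was not tested.

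Of the other pathway genes in ECs 25 of 32 passed the filter of 20 UMIs, with a median ratio of 0.884. Past a ratio of 2 or 0.5 were 1 higher and 2 lower, beside 17.0% of all 13154 genes with as many UMIs. *Rfx5*, a subunit of the factor that binds class II promoters, had 9 and 51 UMIs, a ratio of 4.80 (2.34 to 11.1). The genes of the costimulatory receptors and ligands *Cd40*, with 271 and 135 UMIs, and *Cd86*, with 34 and 17 UMIs, had ratios of 0.422 (0.341 to 0.520) and 0.423 (0.222 to 0.779). The other 22 lay between ratios of 0.5 and 2.

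In brain microglia class II UMIs were found in the control alone, on very few nuclei. The control had 30 class II UMIs in 4 of 129 microglia nuclei (3.10%, 375 CPM), of which 1 nucleus held 16 and 3 nuclei held 29, and all 4 were positive for *Ptprc*. *H2-Eb1* had 12 of these UMIs, *Cd74* 8, *H2-Ab1* 5, *H2-Aa* 4 and *Ciita* 1, and *H2-DMa* and *H2-DMb1* had 0. In CKO 0 of 11 microglia nuclei held a class II UMI, which allows a share of up to 27.3% and a level of up to 205 CPM. Other RNA of these cells was also lower in the CKO nuclei with this label. *Ptprc* was found in 1 of 11 against 50 of 129 nuclei, 9 of the 10 listed microglia markers together stood at 1435 against 5893 CPM (*Tmem119* and *Gpr34* at 0 in CKO, *Sparc* at 0 in the control), and the 10 listed macrophage markers stood at 956 against 14651 CPM (*F13a1* the most abundant). Of the other pathway genes 5 passed the filter of 20 UMIs, and 4 of them had a ratio under 0.5, beside 71.1% of all 989 genes with as many UMIs past a ratio of 2 or 0.5 (188 higher and 515 lower), *Cd86* (80 and 1 UMIs), *Ctss* (57 and 1), *Irf8* (30 and 1) and *Lgmn* (163 and 6). The part of this in the class II counts was not tested. Counted by UMIs the CKO level was at least 1.40-fold lower than the control's by the exact interval of the ratio. Against the floor the bound was 1.83-fold, and 4.05-fold with TMM scaling, but UMIs of 1 nucleus are not independent. Without the nucleus with the most class II UMIs, an alternative chosen after seeing the data, 14 UMIs remained in the control, under the CKO floor, and no bound was left. The share was not distinguishable, so no difference between genotypes was shown in microglia.

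Outside ECs and microglia *H2-DMa*, *Ciita* and *H2-DMb1* were spread more widely than the chain genes and *Cd74*. *H2-DMa* had UMIs in 17 of 21 brain labels, with 93.0% of its 414 UMIs outside ECs and microglia, *Ciita* in 16 labels with 93.2% and *H2-DMb1* in 10 labels with 88.0%, against 28.8 to 57.1% for the chain genes and 46.1% for *Cd74*. In the 11 neuron labels, with 16595 nuclei, the chain genes and *Cd74* together had 11 UMIs while *H2-DMa* had 280 and *Ciita* 52. In 9 of these labels (15542 nuclei) the chain genes and *Cd74* had 0 UMIs and *H2-DMa* 252. Among the oligodendrocyte precursor nuclei of the control, 2 of 400 held class II UMIs, 14 in all, and both were positive for *Ptprc*.

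The promoters of the genes were also read for the letters of the class II promoter boxes. A link between these letters and the levels given above was not tested. RefSeq promoter sequences (GRCm38.p6) matched 4 of the 7 genes, with 5 starts. *H2-Ab1*, *Cd74* and *Ciita* had no entry. The letters searched, on both strands within 250 bases before the start, were GNAACT, the core of the X box, and TGATTGG, the Y box, which do not overlap each other where they form a pair. Of 32851 promoters 12252 (37.3%) held GNAACT, 2375 (7.23%) held TGATTGG, and 68 (0.207%) held GNAACT upstream of TGATTGG with 15 to 40 bases between.

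The pair was found in *H2-Aa* (GNAACT 81 and TGATTGG 50 bases before the start, 25 bases between), in *H2-Eb1* (91 and 61 bases, 24 between) and in *H2-DMb1* (94 and 63 bases, 25 between). At the 2 starts of *H2-DMa* neither set of letters was in the window, of which 74.0% and 37.2% were G or C against a median of 52.4%. Whether either start is used in these nuclei was not tested. Of the other pathway genes 24 of 35 matched, with 33 starts, and *H2-Eb2* alone held the pair. The 150 bases before the start are shown for the genes with the pair and for the first start of *H2-DMa*, with the letters of the pair in capitals. They are from chr17:34287824-34287973 (minus strand), chr17:34305717-34305866 (plus strand), chr17:34153041-34153190 (plus strand) and chr17:34122682-34122831 (plus strand) of GRCm38.p6, 5′ to 3′. A match is a description of letters and no match says only that these letters are not in the window.
H2-Aa: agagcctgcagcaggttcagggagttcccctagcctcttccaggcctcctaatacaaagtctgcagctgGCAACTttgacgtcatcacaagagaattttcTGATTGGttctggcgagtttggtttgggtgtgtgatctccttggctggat
H2-Eb1: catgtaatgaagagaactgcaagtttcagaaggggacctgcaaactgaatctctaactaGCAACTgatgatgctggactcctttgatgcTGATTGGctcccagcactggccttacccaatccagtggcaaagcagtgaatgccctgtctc
H2-DMb1: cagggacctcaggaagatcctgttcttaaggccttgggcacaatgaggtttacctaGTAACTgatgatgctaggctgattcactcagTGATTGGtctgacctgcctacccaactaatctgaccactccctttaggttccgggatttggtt
H2-DMa: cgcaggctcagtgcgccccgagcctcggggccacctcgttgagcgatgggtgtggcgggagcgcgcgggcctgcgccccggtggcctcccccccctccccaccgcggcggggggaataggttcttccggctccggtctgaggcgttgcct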

How the data were processed

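Values were UMI counts per gene and nucleus in the deposited matrices, which the authors made from PIPseq reads with PIPseeker, CellBender for background, SOLO for doublets and manual curation. Cell type, library and batch were taken from the deposited metadata. The 7 genes and the gene lists were chosen with earlier results of these data known. All 7 genes were named in every comparison in which they have UMIs, and other pathway genes where they passed the test, while those with an unadjusted p under 0.05 were named after their values were seen. UMIs were summed per label and library, and intervals were exact (Clopper-Pearson, Poisson, conditional binomial) at 95%. edgeR 4.0.16 (quasi-likelihood, TMM, kit as covariate, at least 20 UMIs per gene in a label with at least 10 nuclei per library, or 100 over all nuclei, adjusted p 0.05) and DESeq2 1.42.0 in R 4.3.3 were fitted to all genes with UMIs in both gene annotations. Immune nuclei were clustered without the 7 genes with leidenalg 0.10.2 at resolution 1 (2000 variable genes, 20 components, 15 neighbors), in Python 3.11.15 with NumPy 2.4.6, SciPy 1.17.1 and pandas 2.3.3, and a cluster was named after a list with at least 3 raised markers, if no other list had as many raised or more among its 10 top genes, unless it was shallow with no listed marker among these. Scripts were tested on simulated data. Alternatives covered scaling, filters, covariates, depth, kit, batch, choice of genes and single libraries. CKO replicate 4 was left out of fits over all nuclei.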

Additional observations from a re-analysis of the deposited data

How the results depend on the processing

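Of 397 alternative values for 38 results other than counts of genes called, 391 counted as the same. Of these, 244 were fitted fold changes of single genes, for which the same meant the same sign and the same call. As 0 class II genes were called in any setting, only a change of sign could count otherwise there. The rest of the 391 moved by no more than the spread between libraries or the counting interval. In all, 394 of the 397 kept their direction, which those set against 0 UMIs in the control could not change. The *H2-Eb1* ratio in ECs (1.27, with an interval that spans 1) crossed 1 under 2 of its 4 alternatives, to 0.647 as a mean over nuclei and to 0.978 without *Ptprc* nuclei. The share among immune nuclei (19.5% in CKO) was 9.50% with at least 2 UMIs, 8.89% with nuclei thinned to 500 UMIs, both under the control's floor of 10.3%, and 10.9% for the chain genes and *Cd74* alone, an alternative chosen after seeing the data. The level in immune nuclei (222 CPM) was 61.4 CPM in the clusters that hold control nuclei, also chosen after seeing the data. In brain microglia the bound against the floor (1.83-fold) was 4.05-fold with TMM scaling and 1.34-fold without *Cd74*. It fell to 0.861, which is no bound, without the nucleus with the most class II UMIs, also chosen after seeing the data. By construction a higher minimum, thinning and fewer genes each count fewer UMIs, and beyond that the cause was not tested. Leaving out 1 CKO library at a time gave 18.3 to 20.5% for the share in immune nuclei, 204 to 241 CPM for the level, 0.817 to 1.13 points for the share over all nuclei, and 0 to 0 class II genes called in immune nuclei and in all nuclei, which with 1 control library is no sign of stability. Over all settings (20, 20 and 3) edgeR or DESeq2 called 0 class II genes in immune nuclei, all nuclei and other labels, with batch as covariate among the settings for immune nuclei and all nuclei. The EC ratio ran from 1.70 (mean over nuclei) to 2.54 (without *Cd74*). At resolution 0.5 no cluster was named dendritic cell-like and a B cell-like cluster of 47 nuclei held 51.2% of the class II UMIs, and at resolution 2 a dendritic cell-like cluster of 31 nuclei held 309 of them. In brain microglia a minimum of 1000 UMIs and the mean over nuclei gave no value.

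No paired analysis was possible because no control shares an animal with a CKO library. The control retina is 1 library with 29 immune nuclei, and genotype and library cannot be told apart there. Batches 2 and 3 hold no control, so a difference between genotypes within them was not tested. In brain each genotype is 1 pool, so that differences between pools of 1 genotype are unknown.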
